A study of Homo sapiens with 6 samples.

Results

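The FOS and JUN family comprises 7 genes in the human genome, FOS, FOSB, FOSL1, FOSL2, JUN, JUNB and JUND. They were taken by symbol from the 26389 genes of the deposited read counts, and all 7 had counts and FPKM values in every library. RNA-seq had been done on HepG2, a human hepatocellular carcinoma cell line, grown in standard medium with fetal bovine serum. Cells of the 3 shTCTP libraries had received, by lipid transfection, a short hairpin RNA plasmid against TCTP, the translationally controlled tumour protein encoded by TPT1. Those of the 3 shCtrl libraries had received a control hairpin plasmid. Both groups thus carried a plasmid, and no untransfected cells were analysed here. A harvest at 48 h is named for quantitative PCR only, and the sources used here give neither the hairpin sequences nor the share of cells that took up the plasmid. The labels do not state whether the 3 libraries of each group derive from independent cultures. The p-values therefore describe the spread among these samples alone, and that spread may be technical. Bulk RNA was sequenced, so fewer cells expressing a gene and less RNA per cell cannot be told apart.

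AP-1 is a transcription factor made of 2 proteins that dimerize through leucine zippers and bind DNA through the basic regions beside them. JUN proteins can pair with one another, whereas FOS proteins need a JUN partner or another zipper protein such as a member of the ATF or MAF families. FOS, FOSB, JUN and JUNB are immediate early genes, switched on within minutes by growth factors or stress through MAP kinases, FOSL1 and FOSL2 follow more slowly, and JUND is made at a steady level in most cells. In rodent liver, FOS and JUN rise early after partial removal of the organ, and JUN is needed in mice for efficient regeneration.

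Libraries held 25427614 to 30486409 reads assigned to genes in the shTCTP group and 29969485 to 30348435 in the shCtrl group. TPT1, the targeted gene, stood at 2032, 1807 and 1559 CPM (read counts scaled to a common library size with TMM factors) in the shTCTP libraries, against 2575, 2249 and 2290 CPM in the shCtrl libraries. Its log2 fold change was -0.40 (SE 0.17), which did not pass (adjusted p = 0.396, edgeR quasi-likelihood test with Benjamini-Hochberg adjustment over all 14197 tested genes). Library shTCTP 3 was the shallowest and stood apart: its correlation to the rest averaged 0.977, and that of each other library 0.986 to 0.987, and every member is therefore also given without it. All 10 hepatocyte markers examined, among them ALB, APOA1 and HNF4A, were read in every library, with a summed level of 17182 to 20626 CPM in shTCTP and 22657 to 23987 CPM in shCtrl cells. All 10 had a negative log2 fold change (median -0.30) and 0 passed in edgeR, with 1 called by DESeq2 and 0 by limma voom. In edgeR 2 of the 10 had an unadjusted p under 0.05, against 11.1% of all tested genes. For 5 of the 10 every shTCTP library lay below every shCtrl library, as in 7.30% of all tested genes, and for 0 above. Of 13 markers of leukocytes, endothelium and fibroblasts, PTPRC, COL1A2, THY1 and DCN had no row among the genes with reads, and the list summed to 21.0 to 21.9 CPM in shTCTP and 21.1 to 25.6 CPM in shCtrl cells. Of the 13, 4 were tested, with log2 fold changes from -0.52 to 1.20, and 0 passed in edgeR, DESeq2 or limma voom. In edgeR 1 of the 4 had an unadjusted p under 0.05, against 11.1% of all tested genes. For 1 of the 4, CD14, every shTCTP library lay below every shCtrl library (7.30% of all tested genes), and for 0 above (9.83% of all). The part of these shifts in the results below was not tested.

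Short stretches of the promoters are shown because 6 of the 7 genes can be compared there with the DNA words that AP-1 and its ATF and CREB relatives bind. They were read from RefSeq on GRCh38.p14, each as 30 bases 5′ to 3′ on the strand of the gene, with matches to TGACG (the core of the cyclic AMP response element), TGACATCA (a variant that JUN and ATF2 bind as a pair) and TGACGTCA (the full element) in capitals.
FOS, chr14:75278753-75278782, plus strand: ggttgagcccgTGACGtttacactcattca
FOSB, chr19:45467921-45467950, plus strand: ccagcaaggggcgggTGACGtaagcagggg
FOSL2, chr2:28392783-28392812, plus strand: gtctggggtTGACGtgagtgaatccacatg
JUN, chr1:58784093-58784122, minus strand: ccttggggTGACATCAtgggctatttttag
JUNB, chr19:12791336-12791365, plus strand: cgcttcctgacagTGACGcgagccgcctcc
JUND, chr19:18281803-18281832, minus strand: gccgcccccaTGACGTCAacccacaaggca
For FOS, FOSB, FOSL2 and JUN the stretch runs from 75 to 46 bases before the RefSeq start, for JUNB from 150 to 121 and for JUND from 210 to 181. The stretches of FOSL2 and JUN, and the end of that of FOS, lie inside the gene as GENCODE draws it, since the 2 annotations place the starts differently. The match began 64 bases before the start in FOS, 60 in FOSB, 66 in FOSL2 and 67 in JUN, all in the same stretch of promoter. JUN held a separate TGACG 123 bases before its start, and FOSL2 one on the opposite strand at 201. JUNB carried TGACG farther out, beginning 137 bases before its start. JUND was the member with the full TGACGTCA, beginning 200 bases before its start, and it had a further TGACG on the opposite strand 86 bases before it.

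Over the 250 bases before the start, searched on both strands, TGACG was present in 6 of 6 members and in 21.2% of 35116 promoters. TGACATCA was found in JUN and in 2.37% of promoters, and TGACGTCA, which contains TGACG, in JUND and in 1.65%. Within the stretch from 75 to 46 bases, TGACG was present in 3 of 6 members and in 4.02% of promoters. TGACATCA was present there in 1 member and in 0.601% of promoters. That stretch was placed to hold the matches of these members, so these shares are a description and no test. TGAGTCA, the classical AP-1 word, was in 0 of 6 members and in 4.203% of promoters. These matches describe letters in short windows and say nothing on binding in these cells.

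In shTCTP cells 6 members rose and JUND, the most abundant, did not pass the test. The rises ran from 1.80-fold for FOSL2 to 3.54-fold for FOS. Of the 7 members 6 were higher and 0 lower at an adjusted p under 0.05 (edgeR), where 1.41% of all tested genes were called, 1.26% higher and 0.148% lower. In those 6 members every shTCTP library lay above every shCtrl library in CPM, a separation found in 9.83% of tested genes, with the reverse in 7.30%. The median log2 fold change of the 7 was 1.10, against -0.00 over all tested genes. As the family was chosen with earlier results of these data known, these shares describe it and do not test it as a set.

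**Figure D1:**
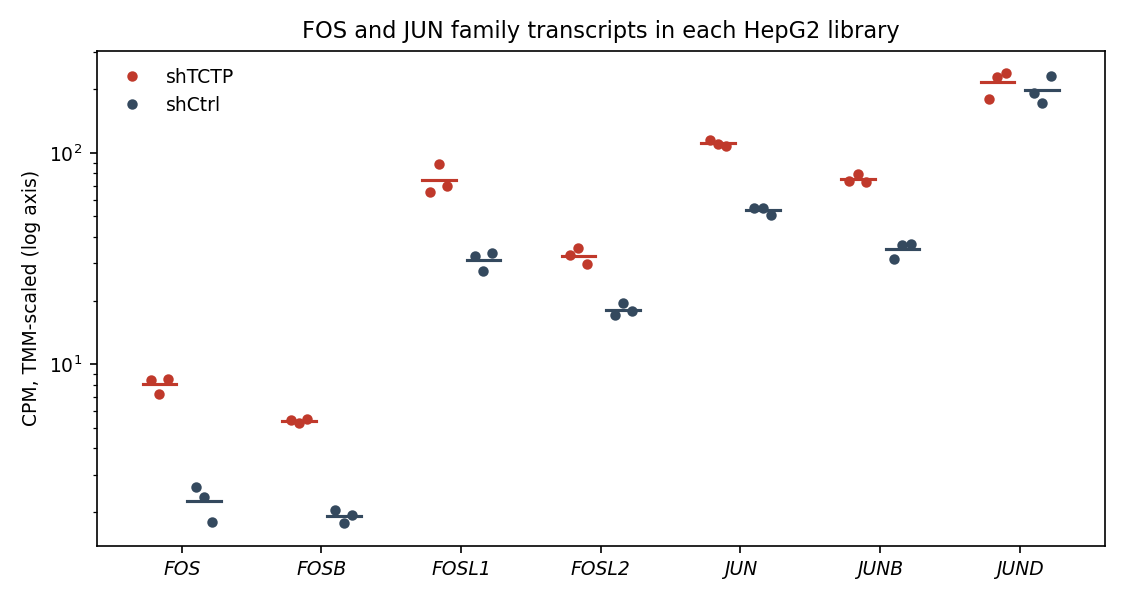
Level of each FOS and JUN family gene in CPM on a log axis, with 1 point per library, shTCTP in red and shCtrl in dark blue, and bars at the mean of 3 libraries. The 2 groups are apart for every gene but JUND, whose 6 values lie between 172 and 238 CPM.

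FOS (ENSG00000170345.9, chromosome 14, 75278774 to 75282230, plus strand of GRCh38 in GENCODE release 29, 4 exons) encodes the founding partner of JUN. It was read 245, 215 and 251 times in the shTCTP libraries, against 80, 68 and 50 times in the shCtrl libraries. In CPM these were 8.39, 7.23 and 8.48 in shTCTP and 2.62, 2.36 and 1.79 in shCtrl cells. The lowest shTCTP library was thus 2.76 times the highest shCtrl library. FOS had the largest fold change of the family, with a log2 value of 1.83 (adjusted p = 9.9e-05 in edgeR, SE 0.21), and 1.80 without shTCTP 3.

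FOSB (ENSG00000125740.13, chromosome 19, 45467995 to 45475179, plus strand, 4 exons), a close relative of FOS, was the scarcest member. Its level was 5.45, 5.25 and 5.50 CPM in the shTCTP libraries, against 2.03, 1.77 and 1.94 CPM in the shCtrl libraries, on 156 to 163 and on 51 to 62 reads. The spread between libraries was small in both groups, with a coefficient of variation of 2.50% in shTCTP and 6.99% in shCtrl cells, below the 7.92% and 13.4% that counting error alone would give. The log2 fold change was 1.49 (adjusted p = 0.000691 in edgeR, SE 0.21), and 1.49 without shTCTP 3. FOSB overlaps the body of ERCC1 on the opposite strand, but no exon of it.

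FOSL1 (ENSG00000175592.8, chromosome 11, 65892049 to 65900573, minus strand, 4 exons) encodes FRA1, which lacks the strong activation domain of FOS. Its level was 65.0, 88.9 and 69.7 CPM in the shTCTP libraries, against 32.4, 27.7 and 33.6 CPM in the shCtrl libraries. Library shTCTP 2 was the highest and the shTCTP values varied most among the members that rose, with a coefficient of variation of 16.9%. The log2 fold change was 1.25 (adjusted p = 0.000132 in edgeR, SE 0.15), and 1.31 without shTCTP 3.

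FOSL2 (ENSG00000075426.11, chromosome 2, 28392448 to 28417312, plus strand, 4 exons) encodes FRA2, the other FOS-related antigen. It had 32.8, 35.3 and 29.7 CPM in shTCTP cells and 17.1, 19.4 and 17.8 CPM in shCtrl cells. The groups did not overlap, and this was the smallest change among the 6 that rose, at 0.85 on the log2 scale (adjusted p = 0.00310 in edgeR, SE 0.14), with 0.92 without shTCTP 3.

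JUN (ENSG00000177606.6, chromosome 1, 58780788 to 58784327, minus strand, 1 exon) encodes the partner through which stress kinases act on AP-1. Its level was 115, 110.4 and 108 CPM in the shTCTP libraries, against 54.9, 54.8 and 51.0 CPM in the shCtrl libraries. Both groups were tight, with coefficients of variation of 3.25% in shTCTP and 4.19% in shCtrl cells. The log2 fold change was 1.05 (adjusted p = 0.000119 in edgeR, SE 0.12), and 1.08 without shTCTP 3.

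JUNB (ENSG00000171223.5, chromosome 19, 12791496 to 12793315, plus strand, 1 exon) encodes a weaker activator that can oppose JUN in growth control. It stood at 73.4, 79.6 and 72.7 CPM in shTCTP cells and at 31.4, 36.7 and 37.2 CPM in shCtrl cells. Its log2 fold change of 1.10 (adjusted p = 0.000136 in edgeR, SE 0.13), and of 1.13 without shTCTP 3, was close to that of JUN. An exon of HOOK2 overlaps JUNB on the opposite strand, and whether reads were counted by strand is unknown from the sources used here. HOOK2 had 346, 334 and 346 reads in shTCTP and 316, 361 and 343 reads in shCtrl libraries, against 2144 to 2368 and 956 to 1059 reads for JUNB.

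JUND (ENSG00000130522.5, chromosome 19, 18279760 to 18281622, minus strand, 1 exon), the steadily made member that restrains growth in many cells, had 179, 229.6 and 238 CPM in the shTCTP libraries, against 191, 172 and 229.7 CPM in the shCtrl libraries. The groups overlapped, with library shTCTP 1 below 2 of the 3 shCtrl libraries. The spread was 14.7% in shTCTP and 14.9% in shCtrl cells, although counting error alone would give 1.25% and 1.32%. The log2 fold change was 0.13 (SE 0.15, 95% confidence interval -0.19 to 0.44) and did not pass (edgeR adjusted p = 0.822). The upper bound lies below the lower bound of each of the other 6 members, of which the lowest was 0.56 for FOSL2. Without shTCTP 3 the JUND value was 0.06.

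**Figure D2:**
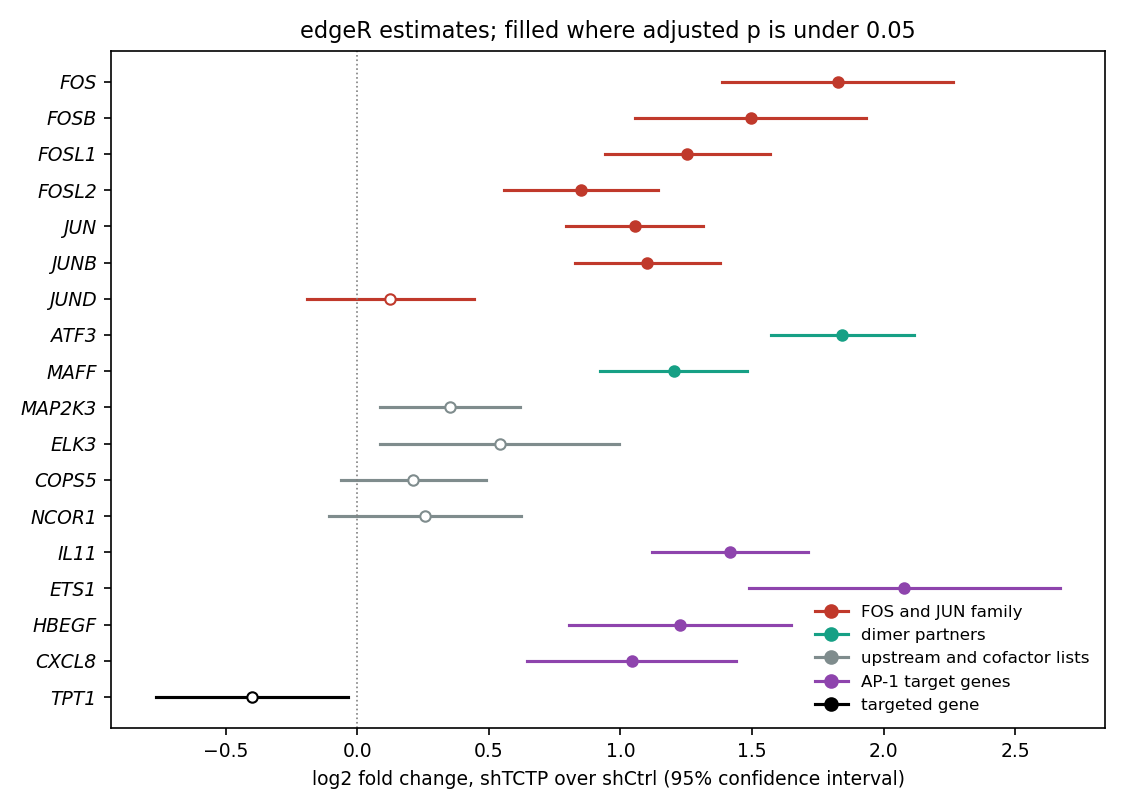
Log2 fold change of shTCTP over shCtrl with its 95% confidence interval from edgeR for the 7 FOS and JUN family genes, named genes of the other lists and TPT1, filled where the adjusted p is under 0.05. Intervals of 6 family members begin at 0.56 or above, while that of JUND runs from -0.19 to 0.44.

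Levels of different genes were compared in FPKM, which divides reads by gene length and by library size but not by the TMM factors. In shTCTP cells JUND stood at 116 ± 27.1, JUNB at 41.1 ± 3.79, FOSL1 at 40.3 ± 6.99 and JUN at 31.2 ± 2.46 FPKM (SD, n = 3 each). FOSL2 at 4.76 ± 0.276, FOS at 2.73 ± 0.448 and FOSB at 0.970 ± 0.121 FPKM followed (SD, n = 3 each). In shCtrl cells JUND stood at 97.7 ± 12.2, JUNB at 17.8 ± 0.868, FOSL1 at 15.7 ± 1.71 and JUN at 13.99 ± 1.23 FPKM (SD, n = 3 each). FOSL2 at 2.46 ± 0.155, FOS at 0.717 ± 0.166 and FOSB at 0.320 ± 0.0361 FPKM followed (SD, n = 3 each). The order of the means was the same in both groups. In each, the libraries of FOSL1 overlapped with those of JUNB and of JUN, while JUND, FOSL2, FOS and FOSB had no overlap with a neighbour in the order.

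Ranked by FPKM among 26184 genes in each library, FOSL1 lay at 1381 to 1736 in shTCTP and at 2855 to 3202 in shCtrl libraries. FOS lay at 7006 to 7465 in shTCTP and at 10297 to 11007 in shCtrl libraries. JUND lay at 492 to 749 in shTCTP and at 609 to 782 in shCtrl libraries, the ranges overlapping. FOS, the member with the largest fold change, thus remained a weakly expressed gene after its rise.

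The summed FPKM of the 7 members was 196, 243 and 273 in the shTCTP libraries, against 153, 135 and 158 in the shCtrl libraries. Every shTCTP sum was above every shCtrl sum, and the ratio of the means was 1.60. An exact permutation test, two-sided, returned p = 0.1, which is as low as a design of 3 against 3 can go, here and for the shares and ratios below that carry this p. The 6 members without JUND summed to 108, 126 and 130 FPKM in shTCTP and to 52.8, 50.1 and 49.9 FPKM in shCtrl libraries, a ratio of means of 2.38. The mean difference was 24.6 FPKM for FOSL1, 23.4 FPKM for JUNB, 18.5 FPKM for JUND and 17.2 FPKM for JUN. JUND, whose groups overlapped, thus held 20.8% of the summed difference in FPKM, which the TMM factors do not enter. These factors ran from 0.919 for shCtrl 3 to 1.17 for shTCTP 3. The JUND fold was 1.19 in mean FPKM and 1.09 in edgeR with TMM, so the 20.8% depends on the scaling of libraries. The mean difference was 2.30 FPKM for FOSL2. It was 2.01 FPKM for FOS and 0.650 FPKM for FOSB, the members with the largest folds.

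The share of JUND in the summed FPKM was 45.2%, 48.3% and 52.3% in the shTCTP libraries, against 65.5%, 62.8% and 68.5% in the shCtrl libraries. No shTCTP library reached a shCtrl library, and the mean fell by 17.0 percentage points (exact permutation p = 0.1, 0.117 adjusted over the 7 shares). The scaling of libraries does not enter this share, since it cancels within a library. Without shTCTP 3 the mean share fell by 18.8 points.

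FOSL1 took 16.6%, 18.9% and 15.5% in shTCTP and 11.2%, 10.3% and 10.1% in shCtrl libraries, a gain of 6.46 percentage points in the mean, and JUNB gained 5.46 and JUN 3.85 points. The order of these 3 gains was not stable: without shTCTP 2 JUNB gained 5.62 and FOSL1 5.49 points, and in TMM-scaled CPM JUN gained 5.51 and FOSL1 5.01 points. FOS took 1.16 ± 0.190% in shTCTP and 0.487 ± 0.127% in shCtrl cells, and FOSB 0.412 ± 0.0446% in shTCTP and 0.216 ± 0.02% in shCtrl cells (SD, n = 3 each). The groups did not overlap for these 5 shares (exact permutation p = 0.1 each, 0.117 adjusted). For FOSL2 they did, with 2.03 ± 0.239% in shTCTP and 1.67 ± 0.249% in shCtrl cells (SD, n = 3 each, exact permutation p = 0.2). Shares of 1 library add up to the whole and are not independent of each other.

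**Figure D3:**
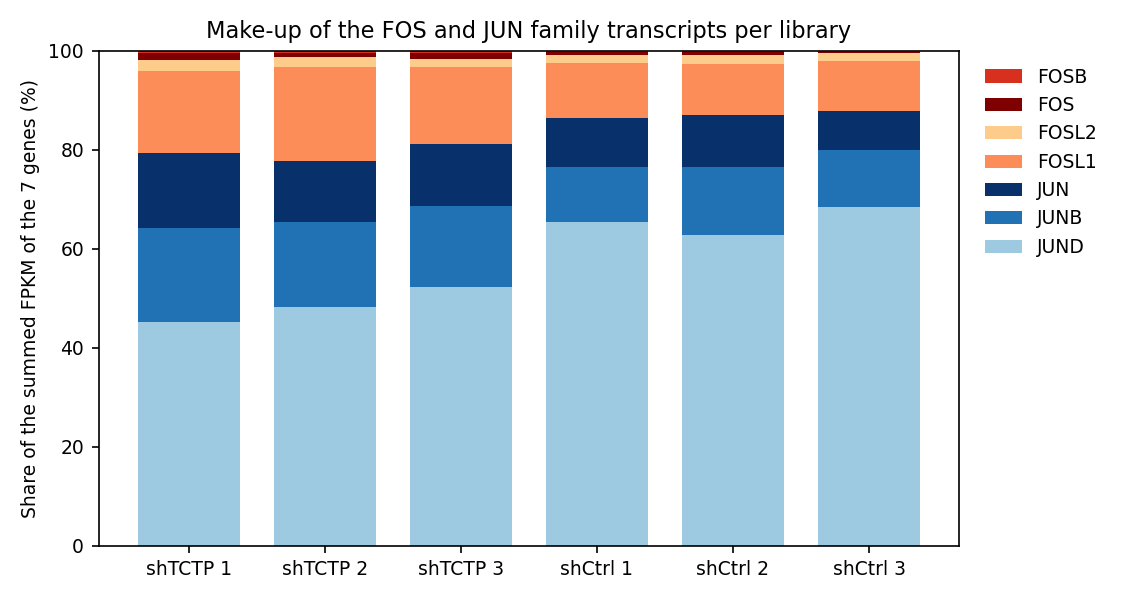
Share of each gene in the summed FPKM of the 7 FOS and JUN family genes, as stacked bars for the 3 shTCTP libraries (left) and the 3 shCtrl libraries (right). JUND takes 45.2% to 52.3% in shTCTP and 62.8% to 68.5% in shCtrl libraries, and FOSL1 is the largest FOS member in all 6.

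The 4 FOS members summed to 40.5, 54.2 and 51.5 FPKM in shTCTP and to 20.9, 17.5 and 19.2 FPKM in shCtrl libraries. The 3 JUN members summed to 156, 189 and 221 FPKM in shTCTP and to 132, 117 and 139 FPKM in shCtrl libraries. The ratio of JUN to FOS members was 3.85, 3.48 and 4.30 in shTCTP, against 6.33, 6.71 and 7.25 in shCtrl libraries (exact permutation p = 0.1), so JUN transcripts stayed in excess in every library. Within the JUN members the share of JUND was 61.2 ± 3.86% in shTCTP and 75.3 ± 2.97% in shCtrl cells (SD, n = 3 each, exact permutation p = 0.1). Within the FOS members the share of FOSL1 was 82.4 ± 2.31% in shTCTP and 81.7 ± 2.29% in shCtrl cells (SD, n = 3 each), a difference well inside the spread (exact permutation p = 0.8).

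Relative to JUND in the same library, each of the other 6 members was higher in every shTCTP library than in any shCtrl library. The mean log2 ratio to JUND was -1.52 in shTCTP and -2.64 in shCtrl libraries for FOSL1, a difference of 1.12. It was -1.87 in shTCTP and -2.80 in shCtrl libraries for JUN, a difference of 0.93, and the differences ran from 0.72 for FOSL2 to 1.71 for FOS (exact permutation p = 0.1 for each of the 6). For FOSL2 the gap between the lowest shTCTP and the highest shCtrl library was 0.15 on this scale, the narrowest of the 6.

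Profiles across the 6 libraries, taken as log2 CPM relative to the shCtrl mean, were closest for JUN and JUNB, with a root mean square difference of 0.12. JUND was the member farthest from each of the others except FOSL2, at 0.69 from JUN to 1.23 from FOS. FOSL2 was 0.56 from JUND and 0.72 from FOS. Among 12203 genes with a mean of at least 1 CPM, those most like JUN were ESAM (0.10), an adhesion molecule of endothelial junctions, the noncoding RNA RP11-242J7.1 (0.11), LYVE1 (0.11), a hyaluronan receptor, CYR61 (0.11), a secreted matrix protein, and PALLD (0.12), an actin-associated protein. Their log2 fold changes ran from 0.98 to 1.15. A fold near that of JUN follows from choosing genes by their profile over the same 6 libraries, so it is a description and no separate result.

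Those most like FOS were GH1, the growth hormone gene (0.18), ATF3 (0.19), BCL2A1, which protects from cell death (0.20), ETS1 (0.21) and ANKRD1, a cofactor of muscle and stress responses (0.21). Their log2 fold changes ran from 1.72 to 2.08, which the choice by likeness to FOS likewise fixes. JUNB was 0.12 and FOSL2 0.17 from JUN, and FOSB was 0.30 from FOS, farther than the 5 genes named.

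The dimer partners outside the family rose in part. Of 16 ATF, BATF and MAF genes 12 were tested, 2 were higher and 0 lower, against 1.26% and 0.148% of all tested genes. Their median log2 fold change was 0.35, and 6 had an unadjusted p under 0.05 in edgeR (11.1% of all tested genes did). Of the 12, 10 had a positive value (83.3%, against 49.6% of all tested genes). In 7 every shTCTP library lay above every shCtrl library, as did 9.83% of all tested genes, with 0 the reverse (7.30% of all). The partners were listed with earlier results of these data known, so the shares are a description and no test. ATF3, which forms dimers with JUN, had 111, 117 and 102 CPM in shTCTP and 31.2, 30.4 and 30.1 CPM in shCtrl libraries, with a log2 fold change of 1.84 (adjusted p = 1.5e-06 in edgeR, SE 0.13). MAFF, a small MAF protein with a zipper but no activation domain, had 68.7, 69.5 and 60.4 CPM in shTCTP and 26.7, 31.4 and 28.2 CPM in shCtrl libraries, with a log2 fold change of 1.20 (adjusted p = 6.7e-05 in edgeR, SE 0.13). The count of partners that rose was 4 without shTCTP 1 and 4 without shTCTP 3.

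Upstream kinases and the factors that switch on FOS and JUN showed no change that passed. Of 31 genes 29 were tested with 0 higher and 0 lower in edgeR, 3 had an unadjusted p under 0.05 (11.1% of all tested genes did), and DESeq2 and limma voom called 0 each. Their median log2 fold change was -0.02. Of the 29, 6 had every shTCTP above every shCtrl library and 0 the reverse, against 9.83% and 7.30% of all tested genes. MAP2K3, which activates p38 kinases, stood at 127 ± 8.83 CPM in shTCTP and 99.5 ± 6.40 CPM in shCtrl cells (SD, n = 3 each). Its log2 fold change was 0.35 (adjusted p = 0.250 in edgeR, SE 0.13). ELK3, an ETS factor that acts with SRF, had 4.62 ± 0.738 CPM in shTCTP and 3.17 ± 0.459 CPM in shCtrl cells (SD, n = 3 each). Its log2 fold change was 0.54 (adjusted p = 0.337 in edgeR, SE 0.21). Transcript levels do not report the activity of these kinases.

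Cofactors of AP-1 and proteins that modify or degrade FOS and JUN gave the same count. All 22 were tested, 0 were higher or lower in edgeR, 0 had an unadjusted p under 0.05, DESeq2 and limma voom called 0 each, and the values ran from -0.19 to 0.33 with a median of 0.11. Every shTCTP library was above every shCtrl library for 2 of the 22 and below for 1, against 9.83% and 7.30% of all tested genes. COPS5, a signalosome subunit that binds JUN, had a log2 fold change of 0.21 (adjusted p = 0.586 in edgeR, SE 0.13). NCOR1, a corepressor, had one of 0.26 (adjusted p = 0.627 in edgeR, SE 0.17), and 0.04 without shTCTP 3.

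Textbook AP-1 target genes moved in part. Of 40 listed, 30 were tested, with 4 higher and 0 lower, against 1.26% and 0.148% of all tested genes. Their log2 fold changes ran from -0.70 to 2.08 with a median of 0.18, and 9 had an unadjusted p under 0.05 in edgeR (11.1% of all tested genes did). Of the 30, 22 had a positive value (73.3%, against 49.6% of all tested genes). Every shTCTP library was above every shCtrl library for 11, as in 9.83% of all tested genes, with 0 the reverse (7.30% of all). This list was chosen with earlier results of these data known, so the shares are a description and no test. IL11, a cytokine of the IL-6 family, had 189, 225 and 164 CPM in shTCTP and 73.3, 71.8 and 71.5 CPM in shCtrl libraries (log2 fold change 1.42, adjusted p = 2.7e-05 in edgeR, SE 0.14). HBEGF, a ligand of the EGF receptor, had 5.93, 6.83 and 6.79 CPM in shTCTP and 3.18, 2.50 and 2.66 CPM in shCtrl libraries (log2 fold change 1.23, adjusted p = 0.00304 in edgeR, SE 0.20).

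ETS1, a transcription factor, had 2.88, 2.99 and 3.88 CPM in shTCTP and 0.787, 0.937 and 0.574 CPM in shCtrl libraries (log2 fold change 2.08, adjusted p = 0.000508 in edgeR, SE 0.28). CXCL8, a chemokine, had 19.5, 15.8 and 13.3 CPM in shTCTP and 9.44, 6.45 and 7.72 CPM in shCtrl libraries (log2 fold change 1.04, adjusted p = 0.00727 in edgeR, SE 0.19). CXCL8 did not pass without shCtrl 2 (edgeR adjusted p = 0.0769), so 3 targets rose there. Several classical targets could not be judged for lack of reads. MMP1 had 0 to 2 reads in shTCTP and 1 read in each of the shCtrl libraries, and IL6 had 0 to 4 reads in shTCTP and 0 to 3 in shCtrl libraries, and neither was tested.

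**Figure D4:**
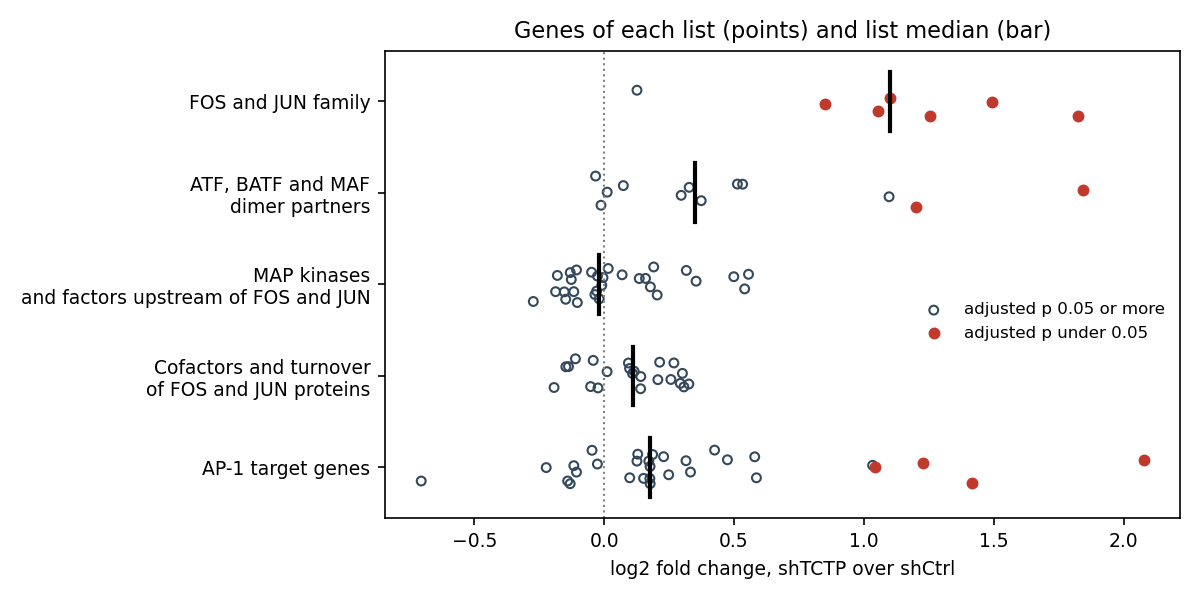
Log2 fold change of shTCTP over shCtrl for each tested gene of the FOS and JUN family and of 4 related lists, red where the edgeR adjusted p is under 0.05, with the list median as a bar and the median of all tested genes as a dotted line. The family median of 1.10 lies to the right of those of the partners (0.35), the targets (0.18), the cofactors (0.11) and the upstream genes (-0.02).

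Under each of 18 alternatives, among them DESeq2, limma voom, limma on FPKM, corrections for gene length and GC content and the omission of each library, the number of members called was 6, and JUND did not pass. With 1 library left out the edgeR adjusted p reached 0.0329 at most, for FOSL2, and JUND had log2 fold changes of 0.03 to 0.25.

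**Figure D5:**
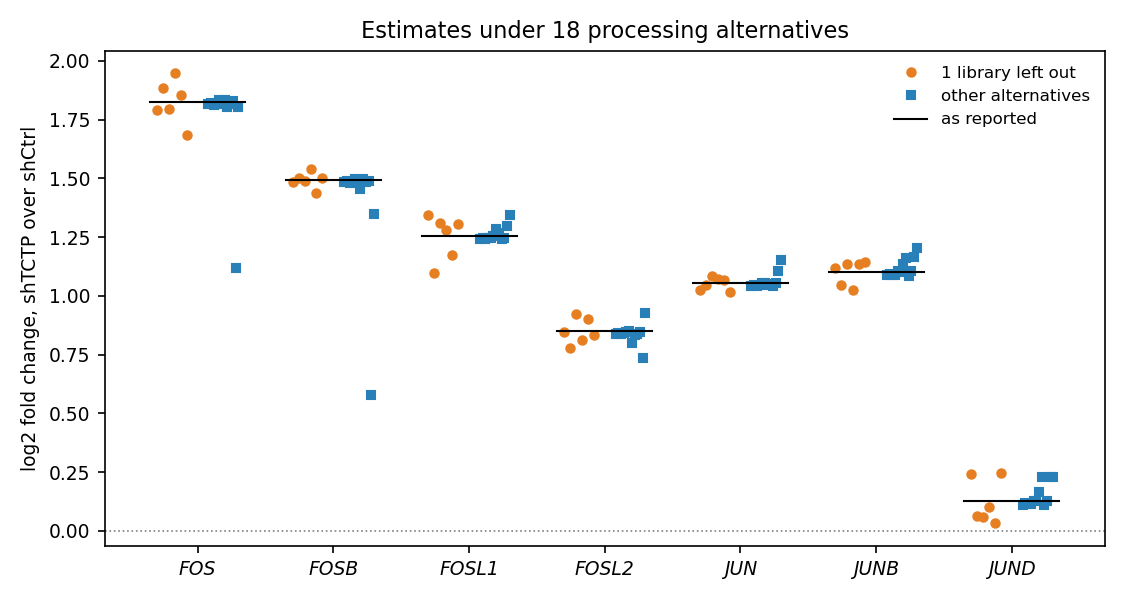
Log2 fold change of each FOS and JUN family gene as reported (line), with 1 library left out (circles) and under 12 other alternatives (squares). All values are above 0, and the low squares of FOS (1.12) and FOSB (0.58) come from adding a pseudocount of 1 to FPKM values that lie between 0.54 and 3.22 for FOS and between 0.29 and 1.11 for FOSB.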

How the data were processed

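Per the labels' protocols, polyadenylated RNA was sequenced from directional libraries as paired reads. The authors deposited raw read counts, with no normalization, and an FPKM table. The submitters' processing notes name GRCh38, TopHat2, bcl2fastq and edgeR. The sources used here give no counting tool, annotation or strand setting. The deposited FPKM values track library size without TMM, since unscaled CPM over FPKM varied between libraries by a median of 0.276%. Log2 fold changes were computed from the deposited counts.

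Counts were tested across all genes with edgeR 4.0.16 (R 4.3.3, limma 3.58.1) by the quasi-likelihood test after filterByExpr and TMM, with robust dispersion, group as the only term and Benjamini-Hochberg adjustment over 14197 genes at a threshold of 0.05. Standard errors were derived from the estimate and the F statistic. Sums, shares and ratios were computed from FPKM and tested by exact two-sided permutation (scipy 1.17.1). The procedure was tested on simulated data. No 2 libraries of a group agreed within counting noise (chi-square over degrees of freedom, 15.1 to 94.1).

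The members and lists were chosen with earlier results of these data known. From each list were named up to 4 genes past the threshold with the smallest p, or the 2 with the smallest p, and for FOS and JUN the 5 closest profiles. Promoters were taken from RefSeq for the 6 members matched. Neighbouring genes were added after seeing the data. DESeq2 was version 1.42.0 and matplotlib 3.10.9.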

Additional observations from a re-analysis of the deposited data

How the results depend on the processing

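The FOS and JUN family gave 6 calls under all 18 alternatives, and no named gene or share changed direction under any alternative run. Across all genes 200 were called, 317 without a filter on low counts, and 79 to 343 with 1 library left out (79, 90 and 101 without shCtrl 2, 1 and 3, 89 without shTCTP 2 and 343 without shTCTP 3). The dimer partner count of 2 was 4 with DESeq2 and 2 to 4 with 1 library left out, and the target count of 4 was 3 to 4. Same-numbered libraries did not deviate together (correlations of -0.23, 0.00 and -0.20), so the number was not taken as a pairing. With the replicate block 130 genes were called and the 6 members stayed called. The exact test within pairs cannot go below 0.25. Of 29 named genes, 4 crossed the threshold, CXCL8, BCL2A1, LYVE1 and PALLD, the last 3 chosen by profile on these libraries. BCL2A1 missed it without shCtrl 1 (adjusted p = 0.0581) and LYVE1 without shCtrl 1 or 2 (0.0583 and 0.0769). PALLD (adjusted p = 0.0681 with all libraries) passed with the GC content correction and without shTCTP 3 (adjusted p = 0.0455 and 0.0394). The summed level of the family was 1.54 times shCtrl in CPM and 1.47 times with TMM-scaled FPKM. Depth limits FOS and FOSB most, at 50 to 80 and 51 to 62 reads in shCtrl libraries.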

Other observations

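The genes beside the family members on the chromosome gave no call. The nearest tested gene on each side of each member, 414 to 512311 bases away, gave 14 neighbours, of which 0 passed in edgeR and 0 had an unadjusted p under 0.05, with a median log2 fold change of -0.04. DESeq2 and limma voom called 0 of them as well. CCDC85B, which lies 414 bases from FOSL1, stood at 75.03 ± 17.3 CPM in shTCTP and 89.2 ± 13.1 CPM in shCtrl cells (SD, n = 3 each, log2 fold change -0.25, SE 0.16). C11orf68, on the other side of FOSL1, had a log2 fold change of 0.21 (SE 0.14). Groups did not overlap for 2 of the 14, CD3EAP beside FOSB (0.14, SE 0.13) and BRE beside FOSL2 (-0.15, SE 0.12), where 9.83% of all tested genes had every shTCTP above every shCtrl library and 7.30% below, so the count is near the background. These genes were chosen by position after the member values had been seen.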
